A study of Mus musculus with 32 samples.

Results

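Nnt, the gene of the mitochondrial nicotinamide nucleotide transhydrogenase, is described here in the mouse distal colon. Its members are the probe sets that the platform annotation of the arrays names Nnt, selected by that symbol alone. They were 3 of the 45101 probe sets in the table, 1456573_x_at, 1416105_at and 1432608_at, for 1 of 18193 genes. Each is given apart, since the probes of different probe sets bind with different strength and their levels cannot be set against each other. The gene itself was chosen with earlier results of this series known, and which measured values led to the choice is not recorded. Differences between Myd88 knockout and wild type mice are therefore given as a description with no test, and the tests concern the response to treatment. The p-values do not account for the choice of the gene, and the treated knockout arrays enter both kinds of comparison.

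RNA of the mouse distal colon was measured on 32 Affymetrix arrays, which the series text counts as biological repeats; it does not say whether each was 1 mouse, and p-values measure the spread between these samples. Treated mice were injected with the colon carcinogen azoxymethane (AOM) at 10 mg/kg. A week later their water held 2% dextran sodium sulfate (DSS), an irritant of the gut lining, for 3 days, after which they were killed. There were 10 arrays of treated Myd88-/- mice (treated KO), 10 of treated wild type mice (treated WT), 6 of untreated Myd88-/- mice (untreated KO) and 6 of untreated wild type mice (untreated WT). The strain label of all 4 groups was C57 BL6NCr, and the series text describes the Myd88-/- mice as backcrossed to that background. The treated mice were 6 to 8 weeks old at injection. Age, handling and protocol of the untreated mice were not stated, so the regimen cannot be told apart from other differences in handling. The probe set of Myd88 itself, the adaptor of most Toll-like receptors and of the IL-1 and IL-18 receptors, averaged 8.00 ± 0.31 log2 units in treated KO and 8.46 ± 0.12 in treated WT mice (SD, n = 10 each), and 7.67 ± 0.11 in untreated KO and 8.40 ± 0.10 in untreated WT mice (SD, n = 6 each). It ran from 7.50 to 8.31 in treated KO and from 8.26 to 8.61 in treated WT mice, so treated KO repeat 3, the highest of its group, overlapped with the treated WT arrays. The untreated groups did not overlap, at 7.53 to 7.81 in untreated KO and 8.23 to 8.51 in untreated WT mice.

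The transhydrogenase spans the inner mitochondrial membrane. It uses the proton gradient to pass hydride from NADH to NADP+, and the NADPH that it makes feeds the glutathione and thioredoxin systems that remove peroxides from the mitochondrial matrix. The gene is known for a deletion of several exons in C57BL/6J mice, which leaves that substrain without a working enzyme, whereas C57BL/6N mice carry the intact gene. The array values do not show which allele a mouse carried, and that was not tested. No sequence of Nnt is printed here.

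Two-sided tests used limma over 45037 probe sets, and a call means a p under 0.05 after Benjamini-Hochberg adjustment. Counts at an unadjusted p under 0.05 are given without the share of all genes at that threshold, so they cannot be set against it. The shares printed are of adjusted calls. Values are quantile normalized log2 signals, in which a difference of 1 is a doubling, and changes are given ± their standard error.

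Nnt signal was lower after AOM and DSS on both of its bright probe sets. In KO mice the fall passed the test on both, to 66.9% and 72.1% of the untreated signal. In WT mice both were also lower, at 80.6% and 79.7% of the untreated signal, without passing the test. Both KO calls were lost when a sign of RNA quality, the 3′ minus 5′ signal of the Actb controls, entered the fit (limma, adjusted p = 0.176 for 1456573_x_at and 0.276 for 1416105_at), a fit in which 0.844% of all probe sets were called in KO mice, against 13.8% without it. The third probe set lay near the floor of the arrays and showed no called change. In these bulk samples, fewer cells that express Nnt and less Nnt RNA per cell cannot be told apart.

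1456573_x_at was the brightest, with a mean signal higher than that of 94.2% of all probe sets. The suffix _x_at is Affymetrix's mark for probe sets some of whose probes can also bind other sequences. In treated KO mice it had a lowest value of 8.81, a median of 9.30 and a highest value of 9.88, against 9.64, 9.80 and 10.1 in untreated KO mice. Of the 10 treated KO arrays, 9 lay below every untreated KO array, and the exception was treated KO repeat 9, at 9.88. The means were 9.26 ± 0.30 in treated KO (SD, n = 10) and 9.84 ± 0.17 in untreated KO arrays (SD, n = 6). The probe set fell by 0.58 ± 0.12 on the log2 scale in KO mice, or 1.49-fold (limma, adjusted p = 0.00148, 95% interval -0.83 to -0.33).

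In treated WT mice 1456573_x_at had a lowest value of 9.32, a median of 9.70 and a highest value of 10.1, against 9.83, 10.0 and 10.1 in untreated WT mice. Here 6 of the 10 treated WT arrays lay below every untreated WT array, and the rest overlapped with them. The means were 9.69 ± 0.24 in treated WT (SD, n = 10) and 10.0 ± 0.11 in untreated WT mice (SD, n = 6). The difference was -0.31 ± 0.12 (limma, adjusted p = 0.248, 95% interval -0.56 to -0.06), so it did not pass over all probe sets, while its unadjusted p was 0.0150.

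1416105_at had a mean signal higher than that of 91.4% of all probe sets. In treated KO mice it ran from 8.41 over a median of 8.92 to 9.17, against 9.25, 9.33 and 9.52 in untreated KO mice. The 10 treated KO arrays and the 6 untreated KO arrays did not overlap. Such a fall without overlap was seen for 0.819% of all probe sets. The means were 8.89 ± 0.22 in treated KO (SD, n = 10) and 9.36 ± 0.10 in untreated KO arrays (SD, n = 6), and it fell by 0.47 ± 0.10, or 1.39-fold (limma, adjusted p = 0.00257, 95% interval -0.69 to -0.26).

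In treated WT mice 1416105_at ran from 8.45 over a median of 8.99 to 9.38, against 9.17, 9.28 and 9.497 in untreated WT mice. Below every untreated WT array lay 8 of the 10 treated WT arrays, and the others, repeats 4 and 8, overlapped with them. The means were 8.97 ± 0.26 in treated WT (SD, n = 10) and 9.29 ± 0.12 in untreated WT mice (SD, n = 6). The difference was -0.33 ± 0.10 (limma, adjusted p = 0.143, unadjusted p = 0.00394, 95% interval -0.54 to -0.11). In each genotype the spread between treated arrays was wider than between untreated ones on both bright probe sets.

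1432608_at was dim. The deposited signals stop at a floor of 3.322 (log2), a linear signal of 10, and this probe set lay on it on 11 of 32 arrays: 3 treated KO, 4 treated WT, 2 untreated KO and 2 untreated WT. Its highest value was 4.69, in treated KO repeat 5. The means were 3.93 ± 0.56 in treated KO and 3.59 ± 0.33 in treated WT mice (SD, n = 10 each), and 3.84 ± 0.49 in untreated KO and 3.82 ± 0.50 in untreated WT mice (SD, n = 6 each). Treated minus untreated was 0.08 ± 0.24 in KO mice, with an interval of -0.41 to 0.57, and -0.23 ± 0.24 in WT mice, with an interval of -0.72 to 0.26. Neither passed, and a floor hides differences at this level.

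Of the 3 Nnt probe sets, 2 were called lower in KO mice, where 7.63% of all probe sets were called lower and 6.15% higher. In WT mice limma called 0 of 3, with 2 at an unadjusted p under 0.05, and 0.666% of all probe sets were called lower and 0.264% higher. This does not show that the genotypes responded differently. The KO response minus the WT response was -0.27 ± 0.17 for 1456573_x_at (limma, adjusted p = 0.621, interval -0.62 to 0.08) and -0.14 ± 0.15 for 1416105_at (adjusted p = 0.792, interval -0.45 to 0.16). For 1432608_at it was 0.31 ± 0.34 (adjusted p = 0.811, interval -0.38 to 1.01). None of the 3 passed, and none had an unadjusted p under 0.05, in a contrast that called 0.0222% of all probe sets.

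**Figure D1:**
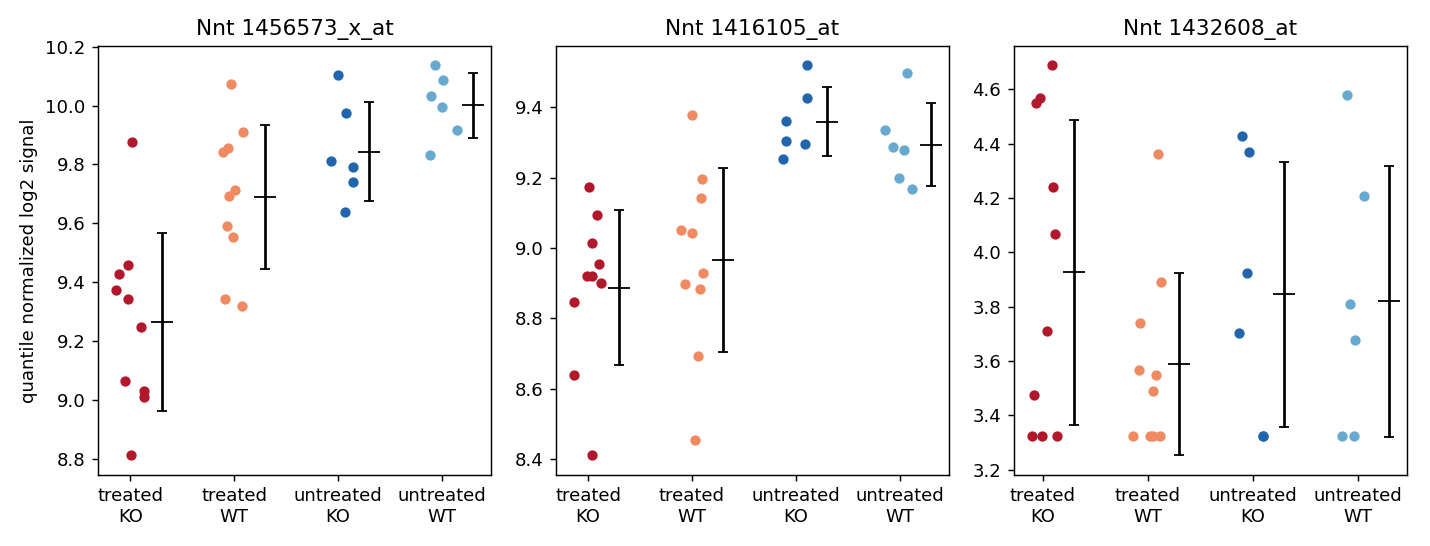
Quantile normalized log2 signal of the 3 Nnt probe sets in treated KO, treated WT, untreated KO and untreated WT mice. Points are arrays and bars give the mean ± SD; the vertical scales differ between panels. On 1416105_at every treated KO array lies below the lowest untreated KO array, at 9.25, and 1432608_at has 11 of 32 arrays at the floor of 3.322.

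**Figure D2:**
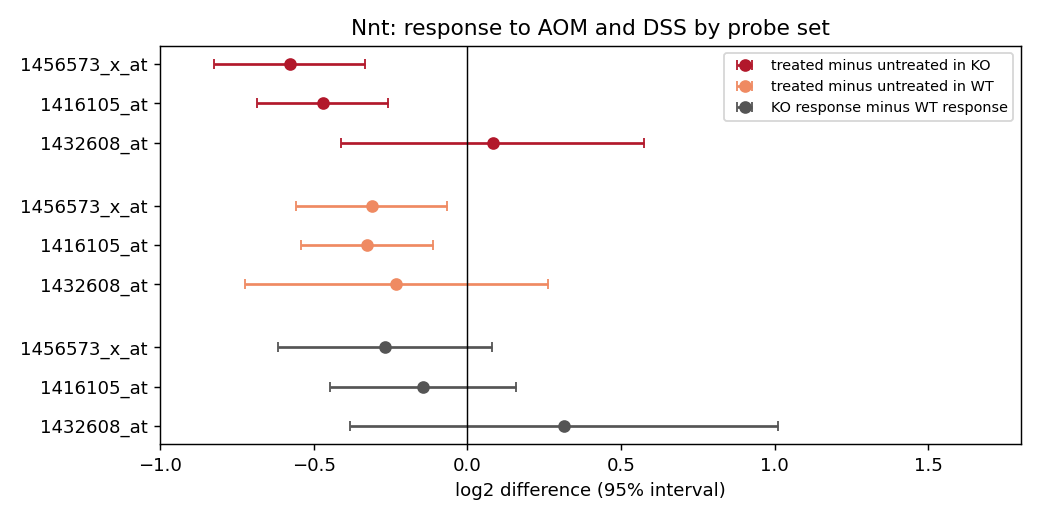
Log2 differences of treated minus untreated mice for each Nnt probe set in KO and in WT mice, and the difference of these responses, with 95% intervals. The intervals of both bright probe sets lie below 0 in either genotype, and all 3 intervals of the difference of responses include 0.

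Set beside each other without a test, the genotypes' means lay further apart on 1456573_x_at than on 1416105_at. On 1456573_x_at the mean was 9.26 in treated KO and 9.69 in treated WT mice, a difference of -0.42 ± 0.10, or 74.5% of the WT signal. Of the treated KO arrays, 5 of 10 lay below every treated WT array. Without treatment it was 9.84 in untreated KO and 10.0 in untreated WT mice, a difference of -0.16 ± 0.13, and 4 of 6 untreated KO arrays lay below every untreated WT array. On 1416105_at the difference was -0.08 ± 0.09 with treatment and 0.07 ± 0.12 without it. With each array centred on its median the first of these was 0.00. On 1432608_at it was 0.34 ± 0.21 with treatment and 0.03 ± 0.27 without it. Over all probe sets, 4.89% were called lower and 4.41% higher in treated KO than in treated WT mice. In untreated KO against untreated WT mice 0.0666% were called lower and 0.0422% higher.

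Because all probe sets of an array share its RNA and its scaling, the gap between the bright probe sets within an array depends little on how that array's overall level was scaled. The measure was added after the values were seen. The size of the gap has no meaning of its own, since the probe sets differ in binding, but it can be compared between mice. The log2 signal of 1456573_x_at minus that of 1416105_at was 0.38 ± 0.26 in treated KO and 0.72 ± 0.14 in treated WT mice (SD, n = 10 each). It was 0.48 ± 0.22 in untreated KO and 0.71 ± 0.22 in untreated WT mice (SD, n = 6 each). The gap ran from -0.08 to 0.86 in treated KO and from 0.45 to 0.88 in treated WT mice, and 7 of 10 treated KO arrays lay below every treated WT array. Of the untreated KO arrays, 2 of 6 lay below every untreated WT array. Between the genotypes this is a description.

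With treatment the gap moved by -0.11 ± 0.12 in KO mice (two-sided exact permutation test over 8008 splits of the arrays, p = 0.416) and by 0.02 ± 0.10 in WT mice (exact permutation p = 0.863). Adjusted over these 2 comparisons the values were 0.831 and 0.863, and 7 of 10 treated KO arrays lay below the untreated KO mean. A change of the gap with treatment was thus not seen beyond the spread between arrays. Over the 32 arrays the bright probe sets correlated with a Pearson r of 0.70 and a Spearman rho of 0.65, and at r = 0.53 after the mean of each group was taken off. 1432608_at did not follow them, at r = 0.01 with 1416105_at and -0.14 with 1456573_x_at. These correlations are descriptions, and the points share the array's scaling.

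**Figure D3:**
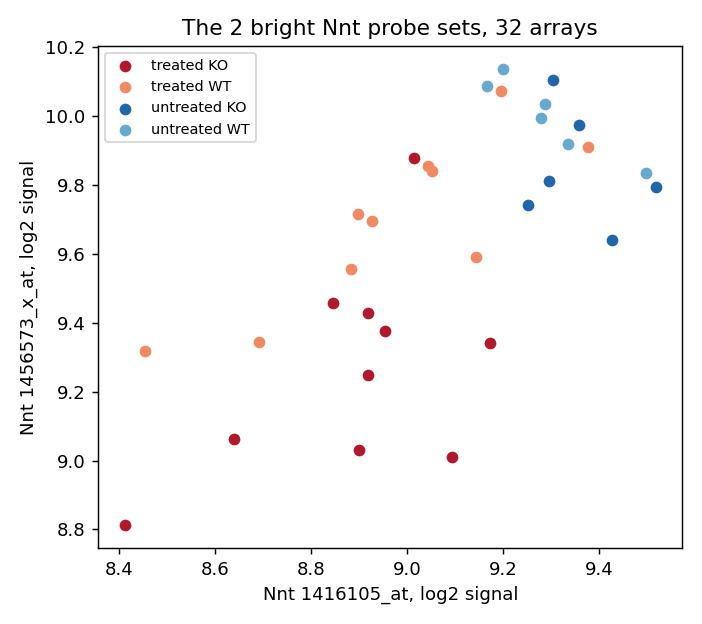
Log2 signal of Nnt 1456573_x_at against that of Nnt 1416105_at on 32 arrays, coloured by group. Untreated arrays lie at the upper right, and most treated KO arrays lie below treated WT arrays of like 1416105_at signal.

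Neighbouring genes on chromosome 13 were then taken, the 15 measured genes on either side of Nnt in the RefSeq gene order (assembly GRCm38.p6), each by its brightest probe set. With the Actb control difference in the fit, 0 of these 30 genes were called by limma in KO mice, with 7 at an unadjusted p under 0.05. So few probe sets were called in that fit, 0.844% of all, that the 0 says little about these genes. Beside Nnt, 5 measured genes in unbroken order after it were lower in treated than in untreated KO mice, and the test without that covariate called all 5. These are the only genes of the 30 that were called lower in KO mice, where 9.14% of all genes were; 1 was called higher, against 7.99% of all genes. The list median was 0.01, against 0.00 over all genes.

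Next to Nnt lies Paip1, which encodes a partner of the poly(A)-binding protein in translation; it is named in addition to the rule for naming genes, after its values were seen. It averaged 7.57 in treated KO and 8.08 in untreated KO mice, and fell by 0.50 ± 0.09 (limma, adjusted p = 0.000399). Of its 3 other probe sets, which lay between -0.42 and 0.03, 1 was called. The next gene, 4833420G17Rik, fell by 0.51 ± 0.09 in KO mice (limma, adjusted p = 0.000368), and 2 of its 4 other probe sets were called, at values between -0.73 and -0.21 for the 4. The probe set of 3110070M22Rik fell by 0.56 ± 0.15 (limma, adjusted p = 0.00914) but was close to the floor, at means of 3.52 in treated KO and 4.08 in untreated KO mice. Its mean in untreated WT mice was 3.53.

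Tmem267, which encodes a transmembrane protein, averaged 5.92 in treated KO and 7.48 in untreated KO mice, and fell by 1.56 ± 0.45 (limma, adjusted p = 0.0174). Its mean in untreated WT mice was 5.95, close to that in treated KO mice. Ccl28, an epithelial chemokine that draws IgA-producing plasma cells, averaged 9.57 in treated KO and 10.5 in untreated KO mice, and fell by 0.88 ± 0.17 (limma, adjusted p = 0.000756). Its 2 other probe sets were called lower as well. The gene after it, Hmgcs1, an enzyme of cholesterol synthesis and the brightest gene not called, differed by 0.27 ± 0.13. On the other side, Fst, which encodes the activin antagonist follistatin, rose by 1.08 ± 0.24 (limma, adjusted p = 0.00283), 13 genes away from Nnt.

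In WT mice limma called 0 of the 30 neighbours in treated against untreated mice, with 6 at an unadjusted p under 0.05, where 0.901% of all genes were called lower and 0.434% higher. The 5 genes after Nnt differed there by -0.27 for Paip1, -0.17 for 4833420G17Rik, -0.16 for 3110070M22Rik, -0.61 for Tmem267 and -0.15 for Ccl28. Of the differences between the genotypes' responses 0 of 30 passed limma, with 4 at an unadjusted p under 0.05, where 0.0275% of all genes were called. Between treated KO and treated WT mice, Ccl28 was the 1 neighbour called, at -0.87 ± 0.15 (limma, adjusted p = 0.000463), where 5.99% of all genes were called lower and 5.57% higher. Between untreated KO and untreated WT mice 0 of 30 were called by limma, where 0.0715% of all genes were called lower and 0.0385% higher. An unadjusted p under 0.05 was seen for 3: Tmem267 (1.54 ± 0.50), 3110070M22Rik (0.55 ± 0.16) and Nim1k (-0.21 ± 0.10). The falls of Tmem267 and 3110070M22Rik in KO mice thus started from untreated KO means above those of untreated WT mice.

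**Figure D4:**
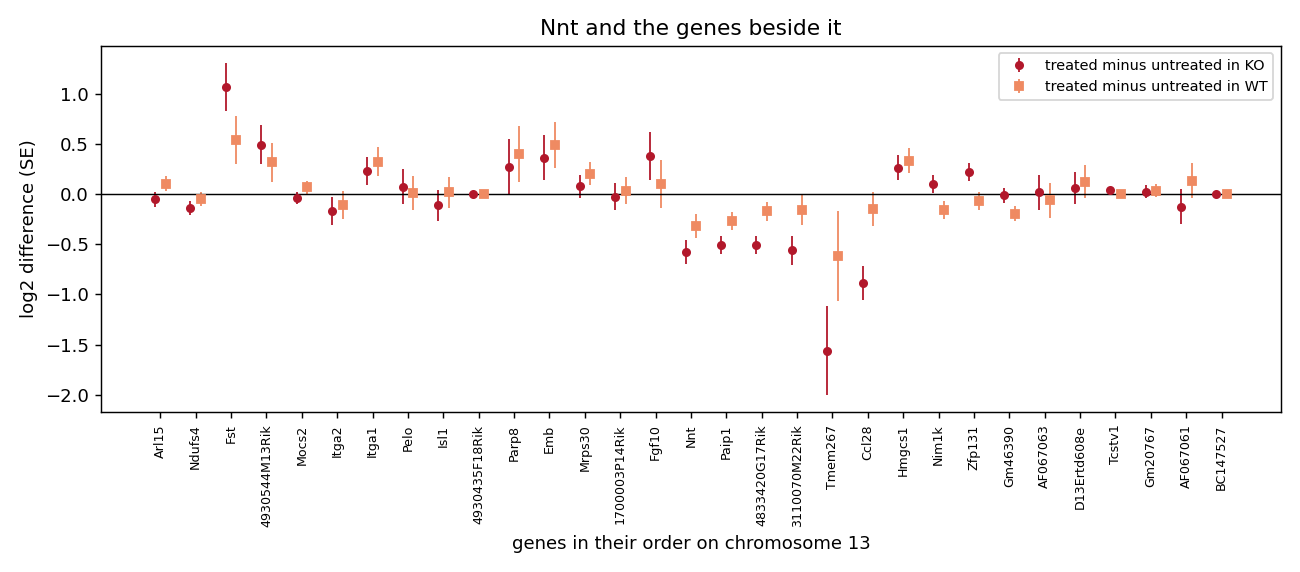
Log2 difference of treated minus untreated mice (± SE) for Nnt (1456573_x_at) and 15 measured genes on either side in their order on chromosome 13, in KO mice (circles) and WT mice (squares). Nnt and the 5 genes after it lie below 0 in KO mice, from -0.50 for Paip1 to -1.56 for Tmem267.

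Genes of 6 lists were taken, 5 around the enzyme and its product NADPH and 1 of genes that differ between C57BL/6 substrains. In KO mice 17 of their 59 measured members were called, where 9.14% of all genes were called lower and 7.99% higher. With the Actb control difference in the fit, limma called 0 of the 59, with 13 at an unadjusted p under 0.05. That fit called 0.844% of all probe sets, so the 0 says little about these genes. The list around mitochondrial NADPH had 9 other genes, of which Mthfd1l and Nadk2 do not make NADPH themselves. Of these 9, 2 fell and 1 rose in KO mice, where 9.14% of all genes were called lower and 7.99% higher. The list median was -0.20, against 0.00 over all genes. Idh2, the NADP-dependent isocitrate dehydrogenase of the matrix, averaged 8.37 in treated KO and 8.98 in untreated KO mice, and fell by 0.61 ± 0.14 (limma, adjusted p = 0.00297). Its other probe set was at -0.19 and was not called. Glud1, glutamate dehydrogenase, fell by 0.24 ± 0.06 (limma, adjusted p = 0.0109; adjusted p = 0.474 with arrays centred on their medians). Aldh1l2, which makes NADPH from formyl-tetrahydrofolate, rose by 0.64 ± 0.18 (limma, adjusted p = 0.0136; adjusted p = 0.0627 with the values as deposited). Me2, a malic enzyme and the brightest member not called, was at -0.03 ± 0.12, while its 3 other probe sets lay between -0.62 and -0.20 and 1 of them was called. In WT mice 0 of the 9 passed, with 3 at an unadjusted p under 0.05 and a median of -0.15.

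Among 8 measured genes of peroxide removal and glutathione reduction in mitochondria, 1 fell in KO mice, against 9.14% of all genes, at a list median of -0.0019. It was Prdx3, the peroxiredoxin of the matrix, which fell by 0.51 ± 0.11 (limma, adjusted p = 0.00240; adjusted p = 0.0884 with arrays centred on their medians). Gpx1, a glutathione peroxidase and the brightest member not called, was at 0.12 ± 0.07. In WT mice 0 of the 8 passed, and 0 had an unadjusted p under 0.05. Of 6 measured genes around cytosolic NADPH, of which the kinase Nadk does not make it itself, 1 fell in KO mice, against the same 9.14% of all genes. It was Mthfd1 of the folate cycle, by 0.68 ± 0.18 (limma, adjusted p = 0.00967), at a list median of 0.08. Pgd, of the pentose phosphate pathway and the brightest, was at 0.28 ± 0.11 and not called, though 2 of its 3 other probe sets were, at values between 0.23 and 0.41 for the 3. In WT mice 0 of these 6 passed, with 2 at an unadjusted p under 0.05.

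Of 9 measured genes of glutathione synthesis and of the oxidative stress response that the factor NRF2 drives, 2 rose in KO mice, where 7.99% of all genes did, at a list median of 0.14. Hmox1, heme oxygenase 1, averaged 6.67 in treated KO and 5.43 in untreated KO mice, a rise by 1.24 ± 0.36 (limma, adjusted p = 0.0176). Srxn1, which repairs overoxidized peroxiredoxins, rose by 0.78 ± 0.15 (limma, adjusted p = 0.000553), as did 2 of its 3 other probe sets. Txnrd1, thioredoxin reductase of the cytosol and the brightest member not called, was at 0.18 ± 0.09. In WT mice 1 of the 9 was called, where 0.901% of all genes were called lower and 0.434% higher. It was Gclm, a subunit of the enzyme that starts glutathione synthesis, which fell by 0.47 ± 0.09 (limma, adjusted p = 0.00975). With the Actb control difference in the fit, 0 of the 9 were called in WT mice.

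The enzyme works beside the citric acid cycle and the respiratory chain. Of 22 measured genes of these, with other inner membrane, outer membrane and mitochondrial regulator genes, 7 fell and 2 rose in KO mice, against 9.14% and 7.99% of all genes, at a median of -0.20. With arrays centred on their medians none of the 22 was called, at a median of -0.12. The largest falls were in Ppargc1a, a coactivator that drives mitochondrial biogenesis (-0.85 ± 0.26, limma, adjusted p = 0.0243), and Idh3a, a subunit of the NAD-dependent isocitrate dehydrogenase (-0.58 ± 0.14, adjusted p = 0.00606). The 4 other probe sets of Ppargc1a lay between -0.55 and -0.41 and were not called, and those of Idh3a lay between -1.10 and 0.11. Sdhb, a subunit of succinate dehydrogenase, fell by 0.41 ± 0.10 and Fh1, fumarate hydratase, by 0.39 ± 0.11 (limma, adjusted p = 0.00639 and 0.0162). The 2 that rose were Cox5a, of cytochrome oxidase (0.14), and Slc25a5, an ADP/ATP carrier (0.16), both among the brightest genes of the arrays and both below 0 with arrays centred on their medians (-0.08 and -0.06) or as deposited (-0.17 and -0.15). Atp5b, of ATP synthase and the brightest member not called, was at 0.15 ± 0.06. In WT mice 0 of the 22 passed, with 2 at an unadjusted p under 0.05, at a median of 0.03.

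Between treated KO and treated WT mice, 11.6% of all genes were called. The NRF2 and glutathione list had 4 of 9 members higher (Srxn1, Txnrd1, Gclm and Slc7a11). It had 1 lower, Cat, at -0.62 ± 0.16 (limma, adjusted p = 0.0117). The mitochondrial NADPH list had 2 of 9 higher, Mthfd2 (0.53) and Mthfd1l (0.51), and 1 lower. The peroxide and glutathione reduction list had 1 higher of 8, and the citric acid cycle and membrane list 5 lower of 22. Of those 22, 0 were called lower by limma with arrays centred on their medians, which put the list median at 0.00115 in place of -0.155, and 3 with the values as deposited. With the Actb control difference in the fit, 9 members of the lists were called in this comparison in place of 15. The share of all genes called in that fit is not given here, so the 9 cannot be set against it. Srxn1 was higher by 0.70 ± 0.13 (limma, adjusted p = 0.000804) and Idh2 was lower, at -0.51 ± 0.12 (adjusted p = 0.00671), while its other probe set was at 0.06 and not called. Gpx4, the glutathione peroxidase that acts on lipid peroxides, was higher by 0.25 ± 0.07 (adjusted p = 0.0176), and its other probe set was called as well, at 0.28. Between untreated KO and untreated WT mice 0 members of the 6 lists were called by limma, where 0.11% of all genes were, and 3 of the 59 had an unadjusted p under 0.05. In the difference of responses 0 members of the 6 lists were called, where 0.0275% of all genes were. Of the 59, 12 had an unadjusted p under 0.05, a count with no share of all genes beside it.

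Other genes known to differ in sequence or level between C57BL/6 substrains were set beside Nnt. A gene that differs in sequence alone need not differ in array signal, and which alleles of these genes the mice carried was not tested. Of 5 measured, Wdfy1, Ide, Cyfip2, Crb1 and Nlrp12, 0 were called between untreated KO and untreated WT mice, where 0.11% of all genes were, and 0 had an unadjusted p under 0.05. Their differences lay between -0.08 and 0.20. Between treated KO and treated WT mice 1 of the 5 was called, where 11.6% of all genes were. It was Ide, which encodes the insulin-degrading enzyme, at -0.46 ± 0.14 (limma, adjusted p = 0.0312, and 0.0724 with arrays centred on their medians). Its 4 other probe sets, between -0.37 and -0.02, were not called. Wdfy1, an endosomal adaptor, rose by 0.39 ± 0.09 in treated against untreated KO mice (limma, adjusted p = 0.00477). It was the 1 of 5 called there, where 7.99% of all genes were called higher. In WT mice 0 of the 5 were called, but all 5 lay above 0, with 2 at an unadjusted p under 0.05 (limma). None of the 5 passed in the difference of responses. Nlrp12 was near the floor, at a mean of 3.35 over all arrays.

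**Figure D5:**
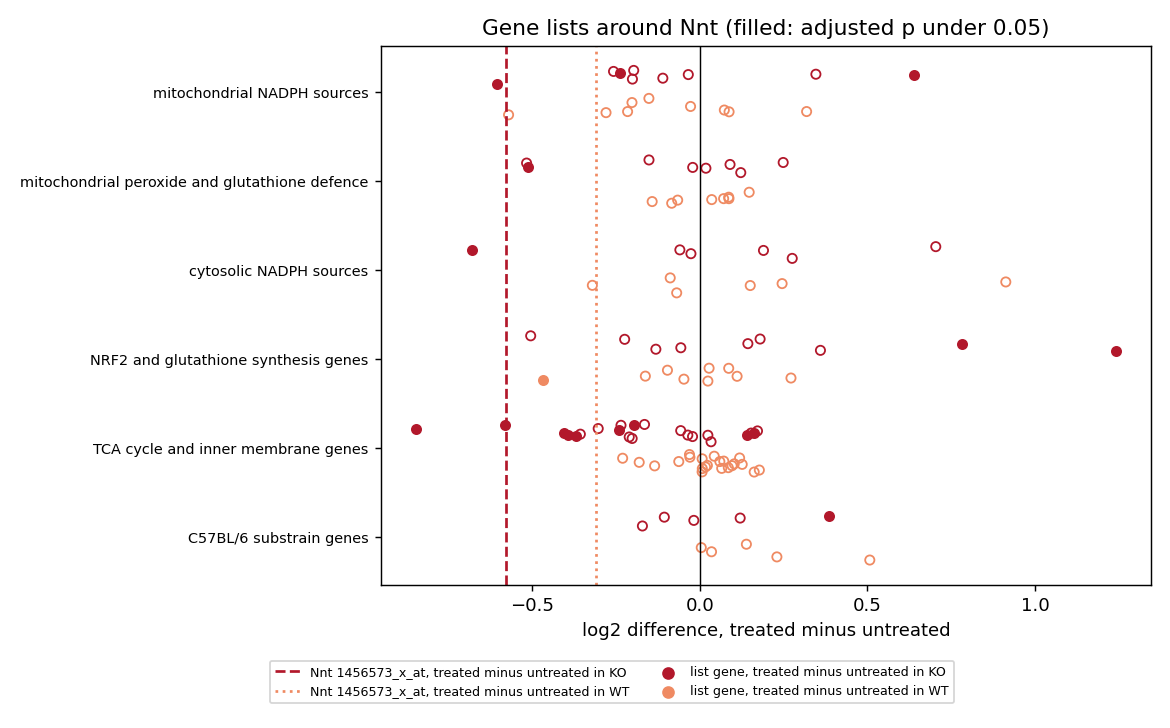
Log2 differences of treated minus untreated mice for the genes of 6 lists, in KO mice (upper row of each list) and WT mice (lower row); filled points had an adjusted p under 0.05. Vertical lines give Nnt 1456573_x_at, at -0.58 in KO and -0.31 in WT mice.

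The genes whose levels ran most like 1456573_x_at over the 32 arrays, among 12174 compared, were Prxl2c, a peroxiredoxin-like gene (r = 0.88), Jchain, the joining chain of IgA and IgM (0.87), Ptch1, the receptor for hedgehog ligands (0.86), Ppp1cc, a phosphatase subunit (0.86), Lrig1, a marker of intestinal stem cells (0.86), and Igha, the heavy chain of IgA (0.85). With 1416105_at these 6 correlated at r between 0.54 and 0.70. The most opposed were Rab11a, a regulator of vesicle recycling (-0.89), Crybg1 (-0.88), Lpcat4, an enzyme of phospholipid synthesis (-0.87), and Gmppb (-0.87). When the group means were taken off, Prxl2c (0.71) stayed among the 6 most alike, with Atcayos (0.75), Pja2, Mtf2, Mib1 and Ythdf3, and Rab11a (-0.74) and Crybg1 (-0.73) among the 4 most opposed, with Abcd3 and Tmem54. After that step the same genes correlated with 1416105_at less closely, Prxl2c at 0.26 and Rab11a at -0.45. These correlations over arrays are descriptions, and the arrays share scaling and tissue makeup.

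The tissue label was checked on 7 colon epithelium genes. Slc26a3, Car1 and Muc2 averaged 13.1, 13.1 and 13.2 in treated KO and 13.2, 12.97 and 12.96 in untreated KO mice. Krt20, Vil1 and Cdx2 averaged 12.5, 11.4 and 7.86 in treated KO and 11.8, 11.1 and 7.11 in untreated KO mice. Hoxd13 averaged 9.77 in treated KO and 10.6 in untreated KO mice. The mean of the 7 was 11.6 ± 0.15 in treated KO (SD, n = 10) and 11.4 ± 0.07 in untreated KO arrays (SD, n = 6). In WT arrays it was 11.3 ± 0.19 with treatment (SD, n = 10) and 11.4 ± 0.05 without it (SD, n = 6). Its part in the Nnt values was not tested. Markers of other tissues varied widely between arrays, and their part in the Nnt values was not tested beyond a fit with covariates and one without 6 arrays. The mean of 8 squamous epithelium genes was 6.51 ± 1.65 in treated KO and 8.09 ± 2.49 in treated WT mice (SD, n = 10 each), and 5.92 ± 2.05 in untreated KO and 5.83 ± 1.06 in untreated WT mice (SD, n = 6 each), with a highest array of 12.3 in treated WT repeat 1. The mean of 7 skeletal muscle genes was 6.72 ± 1.64 in treated KO, 7.22 ± 1.85 in treated WT, 6.39 ± 1.54 in untreated KO and 5.73 ± 2.00 in untreated WT mice (SD, n = 10, 10, 6 and 6). Krt13, Krt1, Sprr3, Myh4 and Myh1 were at the floor on at least 1 array of every group. The mean of 6 leukocyte genes was 6.81 ± 0.72 in treated KO and 6.40 ± 0.36 in untreated KO mice. In WT mice it was 7.04 ± 0.46 with treatment and 6.51 ± 0.52 without it. For 5 smooth muscle genes the means were 10.8 ± 0.63 in treated KO and 10.4 ± 0.23 in untreated KO mice. In WT mice they were 10.7 ± 0.31 and 10.4 ± 0.27 (SD, n as above). Neither list entered a fit. With the group means taken off, 1456573_x_at correlated with the skeletal muscle mean at r = 0.53 and 1416105_at at 0.20, while with the mean of 5 smooth muscle genes they correlated at -0.05 and 0.54. Treated KO repeat 9, which overlapped with the untreated KO arrays on 1456573_x_at, had the highest skeletal muscle mean of its group, at 10.3.

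When the squamous epithelium and skeletal muscle means entered the fit as covariates, 1456573_x_at was at -0.61 and 1416105_at at -0.46 in KO mice (limma, adjusted p = 0.000313 and 0.00238). Without 6 arrays that had high means of either, picked after seeing the data (treated KO repeat 9, treated WT repeats 1, 2 and 4, untreated KO repeat 3 and untreated WT repeat 3) they were at -0.60 and -0.50 (adjusted p = 0.000681 and 0.00137). As a sign of RNA quality, the 3′ minus 5′ log2 signal of the Actb controls averaged 0.33 ± 0.06 in treated KO arrays (SD, n = 10), against 0.46 ± 0.09 in untreated KO arrays (SD, n = 6). That of the Gapdh controls lay the other way, at -0.39 ± 0.04 in treated KO arrays (SD, n = 10) and -0.48 ± 0.05 in untreated KO arrays (SD, n = 6).

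Each control difference was therefore entered in the fit by itself, a choice made after seeing the data. With the Actb difference, 1456573_x_at was at -0.44 ± 0.15 and 1416105_at at -0.31 ± 0.13 in KO mice, and neither passed (limma, adjusted p = 0.176 and 0.276), though both had an unadjusted p under 0.05. The median standard error over all probe sets was 1.31 times that of the fit without covariates. With the Gapdh difference that ratio was also 1.31, and the bright probe sets were at -0.64 and -0.46. Both passed (limma, adjusted p = 0.00813 and 0.0291), where 11.1% of all probe sets were called. With both differences as separate covariates the ratio was 1.55, and the bright probe sets were at -0.51 and -0.30. Neither passed (limma, adjusted p = 0.160 and 0.376), where 1.46% of all probe sets were called. Of the Nnt probe sets, 1 had an unadjusted p under 0.05 in that fit. The Actb difference was lower with treatment in WT mice too. It averaged 0.38 ± 0.05 in treated WT (SD, n = 10) and 0.45 ± 0.03 in untreated WT arrays (SD, n = 6). In both genotypes it thus moved with treatment, and these arrays do not separate the 2. The part of RNA quality in the Nnt values was not tested further.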

How the data were processed

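The deposited values are log2 probe set signals. The software that made them is not given in the sources used here; the values show that the authors scaled each array (2% trimmed means of linear signal between 150.9 and 151.3) and raised signals under 10 to 10. Between 18.7% and 23.9% of an array's probe sets lay at that floor. Here 64 control probe sets were left out, and the other 45037 were quantile normalized and fitted as 4 group means with limma 3.58.1 in R 4.3.3 (28 residual and 0.921 prior degrees of freedom). Arrays of a group correlated at r between 0.943 and 0.983. Precision is limited by the number of arrays.

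Symbols came from the platform annotation. Probe sets with 1 symbol numbered 34945, with several 932 and with none 9160; a gene was represented by its brightest probe set with 1 symbol (18193 genes). Members and lists were chosen with earlier results of these data known. Of 65 listed genes 59 were measured; the others were not analysed here. The text names every Nnt probe set, and the 6 genes most like and 4 most opposed to 1456573_x_at above the 40th percentile of mean signal. For treated against untreated mice the text names called list members and neighbours (at most 4 in each direction) with the brightest not called. Of the list members called between treated KO and treated WT mice, not all are named. Same-numbered repeats of 2 groups correlated above 0.1 in 1, 1, 1 and 0 of 10, 6, 6 and 6 pairs, so numbers were not taken as pairs. Alternatives were other scalings, a filter, 1 probe set a gene, fits of just the groups compared, a block on repeat number, another prior and leaving out each array; the covariates and the 6 arrays left out were chosen after seeing the data. The fit was tested on simulated data with known changes.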

Additional observations from a re-analysis of the deposited data

How the results depend on the processing

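Every alternative run that tested a bright Nnt probe set in KO mice called it lower with treatment, except 2 runs added after seeing the data. The run with 1 probe set a gene held 1456573_x_at and not 1416105_at. With the Actb 3′ minus 5′ difference as a covariate, 1456573_x_at was at -0.442 and 1416105_at at -0.312, and 0 Nnt probe sets, 0 neighbours and 0 list members were called in KO mice by limma, 0 list members in WT mice and 9 between treated KO and treated WT mice. That fit called 0.844% of all probe sets in KO mice, and its shares for the other comparisons are not given here. With the Actb and Gapdh differences as 2 covariates 1456573_x_at was at -0.506 and 1416105_at at -0.3, and 0 Nnt probe sets, 0 neighbours and 1 list member were called in KO mice and 0 list members in WT mice. In KO mice 1.46% of all probe sets were called in this fit. The mean of both differences adjusts for little, since they lie in opposite directions and their mean was -0.0307 in treated KO and -0.0107 in untreated KO arrays. Over 32 fits that each left out 1 array, 1456573_x_at lay between -0.65 and -0.53 and 1416105_at between -0.50 and -0.42, and in the other alternatives between -0.66 and -0.44 and between -0.51 and -0.30. In WT mice and in the difference of responses no Nnt probe set was called in any alternative; the lowest adjusted p in WT mice was 0.0726 for 1416105_at, without 1 array. The change of 1432608_at in KO mice had no stable direction: it was -0.0118 with the values as deposited, -0.0395 without 6 arrays with high squamous or skeletal muscle signal, and between -0.0225 and 0.199 when 1 array was left out. Without 1 array, the untested KO minus WT difference of 1432608_at in untreated mice ran from -0.0918 to 0.177, and that of 1416105_at in treated mice from -0.136 without treated WT repeat 1 to -0.0261 without treated KO repeat 1. With the repeat number as a replicate block, 1456573_x_at was at -0.662 and 1416105_at at -0.505 in KO mice, and the block changed no Nnt call; the numbers do not pair the arrays. Called members of the gene lists in treated against untreated KO mice numbered 17, but 7 with each array centred on its median, a scaling that moved the median difference of all probe sets by 0.0356 against quantile normalization. Between untreated KO and untreated WT mice they numbered 0, and 1 without the 6 arrays. The cause was not tested. Representing a gene by 1 probe set gives no count over the Nnt probe sets. The 40th percentile filter removes 1432608_at, whose level near the floor limits what it can show.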
